A study of Mus musculus with 2 samples.

Results

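Transcripts of the TGF-beta and BMP signalling system were compared between mouse embryonic fibroblasts that lacked Lats2 and wild-type fibroblasts. The members were all genes whose name on the array matched a TGF-beta ligand or receptor (Tgfb, Tgfbr), a BMP or BMP receptor (Bmp, Bmpr), a growth and differentiation factor (Gdf), an inhibin or activin subunit (Inh), an activin receptor (Acvr), a gremlin, noggin, chordin, follistatin or follistatin-like gene, or a latent TGF-beta binding protein (Ltbp). The names matched 82 probes of 56 genes, out of 27579 genes with a usable spot. Fibroblasts of both genotypes were of strain C57BL/6J and untreated. The genotype was written LAT2-/- or LAT2+/+ in one label field and LATS2-/- or LATS2+/+ in the titles. Both RNAs were hybridised together on 2 arrays. The first array had the KO RNA in Cy5 with the WT RNA in Cy3, and the second had the opposite dyes. The labels give no embryonic age, passage or number of embryos or cultures, so the pair of arrays was treated as a dye swap of 1 RNA per genotype. Values on the arrays therefore show hybridisation and dye error, and no difference between genotypes has a replicate check or a test.

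TGF-beta, activins, BMPs and GDFs are secreted dimeric ligands of one protein family. A ligand brings together type II and type I receptor kinases, and the type I receptor then phosphorylates SMAD proteins, which enter the nucleus and act on target genes. Antagonists such as noggin, gremlin, chordin and follistatin bind ligands outside the cell, and latent TGF-beta binding proteins anchor inactive TGF-beta in the matrix. In fibroblasts TGF-beta is best known for inducing matrix and contractile genes, and BMPs for inducing the Id genes. Lats2 is a kinase of the Hippo pathway that phosphorylates the co-activators YAP and TAZ.

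The targeted gene was measured first. Lats2 had 4 probes, all on chromosome 14 of the mm8 build, and 3 of them were brighter in the RNA labelled KO. Their log2 ratios of KO over WT were 0.51 and 0.61, 0.65 and 0.48, and 0.51 and 0.74 on the first and second array. The other probe, at 56676512-56676571, gave -0.18 and -0.51. Where these probes lie relative to the deleted part of Lats2 was not analysed here, and every direction below therefore rests on the labels. Values are written as the RNA labelled KO against the RNA labelled WT. Lats1, the paralogue, gave -0.03 and -0.04.

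As a check of the cell type, 11 of 11 fibroblast markers stood well above background in WT-labelled RNA and 10 of 11 in KO-labelled RNA. Their summed signal was lower in the RNA labelled KO, at 111682 against 141168 units on the first array and 105579 against 144015 on the second, with a median log2 ratio of -0.40 and no marker at least 2-fold different on each array. Such sums follow the brightest probes of a list, since signals of different probes are not comparable. None of 5 endothelial and none of 4 skeletal muscle markers was well above background on both arrays. Of 6 epithelial markers Epcam, Cdh1, Krt8 and Krt18 were not, while Krt5 and Krt14 were in both RNAs. Among 5 macrophage and blood markers Ptprc, Emr1 and Itgam were not above background on both arrays, while Csf1r and Cd68 were in both RNAs. The summed signals of these 4 lists lay between 263 and 459 units, and no marker in them differed at least 2-fold on each array. Of 4 neural markers Sox2 and Gfap were not above background, while Tubb3 and Nes were in both RNAs. Of 6 cartilage and bone markers Sp7 and Bglap1 were not, while Sox9, Col2a1, Acan and Runx2 were in both RNAs. The summed signals lay between 1262 and 1427 units for the neural list and between 3703 and 4382 units for the cartilage and bone list. All 4 smooth muscle markers were above background in both RNAs. Their summed signal was 48317 (KO) against 40936 (WT) on the first array and 48014 against 38390 on the second, while the median log2 ratio of the list was -0.16. Acta2 gave a mean of 0.80 and Myh11 of -0.46 (both named after their values were seen), and Cnn1, a calponin of contractile cells, was 4.32-fold lower. In bulk RNA, fewer cells of a type and less RNA per cell cannot be told apart. The part of these markers in the member genes' values was not tested.

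The values are normalised signals in arbitrary units, with an added offset of 50 that pulls the ratios of dim probes towards 0. A probe not well above background had a median signal between 64.4 and 65.0 units on this scale. Between the arrays, the log2 ratio of a single probe had a standard deviation of 0.133 over all probes. A gene was called if each array gave a log2 ratio of 1 or more in size (2-fold) with a common sign, and if Feature Extraction flagged its probe as well above background on both arrays in the brighter RNA.

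Of the 56 member genes, 39 were well above background in both RNAs on both arrays. Another 3 (Bmp8a, Gdf6 and Tgfbr3) were so on both arrays only in the RNA labelled KO, and 14 were not so on both arrays in either RNA. Bmp4, Fst and Tgfb2 were called higher in the RNA labelled KO, which is 3 of 56 (5.36%), where 1.7% of all genes were called higher. Bmp3 and Fstl1 were called lower, 2 of 56 (3.57%), where 1.49% of all genes were called lower. The median log2 ratio of the members was -0.02, and that of all genes -0.00. The median size of the ratio, whatever its sign, was 0.20 in the members and 0.10 over all genes. Detection differed between these sets: 75.0% of members and 57.6% of all genes were above background in at least 1 RNA on both arrays. Genes at background cannot be called, and the added offset makes their ratios smaller. The shares and median sizes were not matched for signal, so they do not show that members differed more than other detected genes. Members had log2 ratios between -3.26 and 2.36, with 25 above and 31 below 0.

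**Figure D1:**
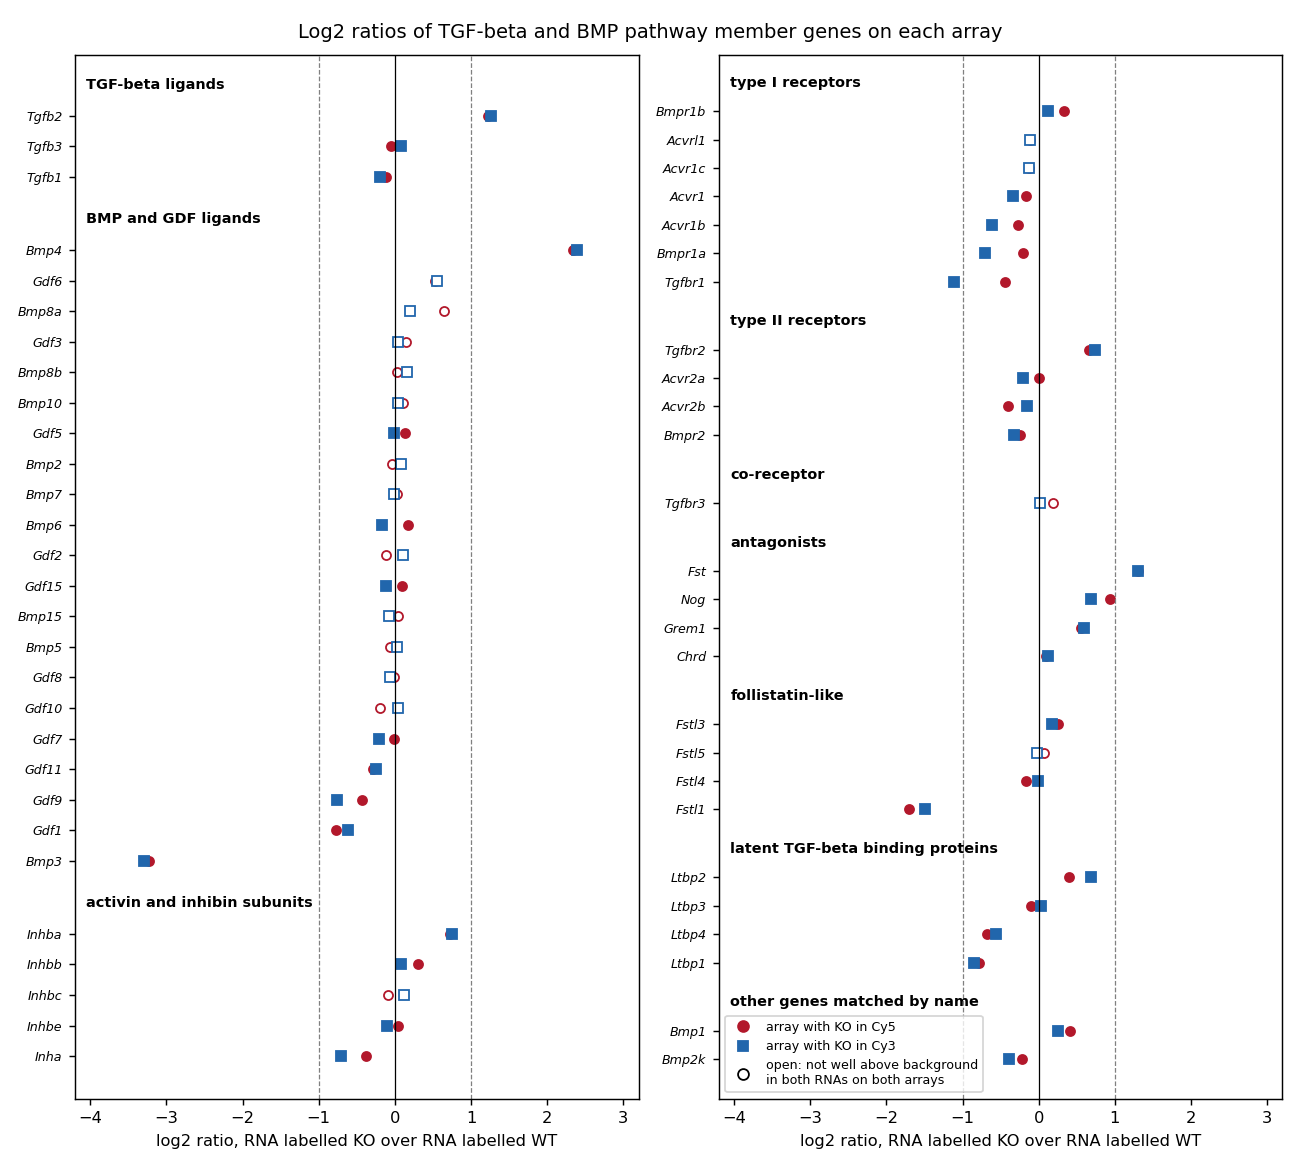
Log2 ratio of the RNA labelled KO over the RNA labelled WT for 55 of the 56 member genes (horizontal axis), grouped by role, with circles for the array with KO in Cy5 and squares for the array with KO in Cy3, open where the probe was not well above background in both RNAs on both arrays. Dashed lines mark 2-fold; Bmp4, Fst and Tgfb2 lie beyond the right line and Bmp3 and Fstl1 beyond the left line on both arrays.

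RefSeq promoters (GRCm38.p6) were matched for 42 of the 56 members, including Bmp4, Tgfb2 and Fstl1 among the 5 called. They are shown because these genes moved in opposite directions in the same RNAs. The 250 bases before the annotated start are printed 5′ to 3′ on the strand of the gene. Capitals mark SMAD boxes (CAGAC, or GTCTG on the other strand). The Bmp4 window is chr14:46390670-46390919 on the minus strand, the Tgfb2 window chr1:186705990-186706239 on the minus strand, and the Fstl1 window chr16:37776805-37777054 on the plus strand.
Bmp4: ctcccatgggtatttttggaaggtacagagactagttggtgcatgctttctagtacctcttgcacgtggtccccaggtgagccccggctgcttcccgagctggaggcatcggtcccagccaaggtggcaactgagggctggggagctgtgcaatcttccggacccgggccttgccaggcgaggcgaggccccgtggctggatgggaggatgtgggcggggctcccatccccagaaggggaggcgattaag
Tgfb2: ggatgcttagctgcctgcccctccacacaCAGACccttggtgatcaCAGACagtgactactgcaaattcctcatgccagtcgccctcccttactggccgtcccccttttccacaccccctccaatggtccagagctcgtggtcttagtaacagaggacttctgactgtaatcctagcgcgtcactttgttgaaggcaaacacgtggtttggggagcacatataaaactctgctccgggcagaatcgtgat
Fstl1: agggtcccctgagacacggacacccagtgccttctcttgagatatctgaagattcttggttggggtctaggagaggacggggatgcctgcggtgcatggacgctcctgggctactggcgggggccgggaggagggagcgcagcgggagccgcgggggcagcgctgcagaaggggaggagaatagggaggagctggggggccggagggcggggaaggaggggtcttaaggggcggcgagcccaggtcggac
Tgfb2 had 2 SMAD boxes, at bases -221 to -217 and -204 to -200 before the start. No SMAD box was found in the windows of Bmp4 and Fstl1. The other searched motifs, on both strands, were the core bound by TEAD factors (GGAATG), the GC-rich SMAD site (GGCGCC) and the AP-1 site (TGAGTCA or TGACTCA), and none of them was in the 3 windows. No searched motif is contained in another, and a match describes letters, not binding. Over all 32851 promoters of the same length, 42.2% held a SMAD box, 12.6% the TEAD core, 9.59% the GC-rich site and 4.46% the AP-1 site. The members had 52 promoters, of which 29 (55.8%) held a SMAD box, 4 (7.69%) the TEAD core, 9 (17.3%) the GC-rich site and 0 the AP-1 site.

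Among the 3 TGF-beta ligands, Tgfb2 differed between the RNAs and the others did not reach the threshold. Tgfb2 gave 1474 (KO) against 633 (WT) units on the first array and 1547 against 646 on the second. The RNA labelled KO was higher on both arrays, the log2 ratios of 1.22 and 1.26 averaged 1.24, and the fold was 2.36. With median centring in place of the intensity-dependent dye correction the ratios were 1.98 and 0.51, and the call was lost. Its probe lies at chr1:188324443-188324502 (mm8), and the gene stood at position 366 of 27579 from the top. Tgfb3, a ligand prominent in mesenchymal tissue, was at 18495 (KO) against 19143 (WT) units and at 18764 against 17671, and its log2 ratios of -0.05 and 0.09 lay on both sides of 0. Tgfb1 gave log2 ratios of -0.12 and -0.19, from 10 spots of its probe on each array.

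The BMP and GDF ligands held the largest difference in each direction among the members. Of 21 genes, 9 were well above background in both RNAs on both arrays, with 1 called higher and 1 called lower. Bmp4, a ligand that patterns mesoderm and drives bone and adipose differentiation of mesenchymal cells, gave 1897 (KO) against 375 (WT) units on the first array and 1925 against 369 on the second. The RNA labelled KO was 5.14-fold higher on both dye orientations together, with log2 ratios of 2.34 and 2.38, each from 10 spots of 1 probe at chr14:45306004-45306063. It stood at position 89 of 27579 from the top. Bmp3, an atypical member that opposes osteogenic BMPs, gave 157 (KO) against 1472 (WT) units and 188 against 1834 units. Its log2 ratios were -3.22 and -3.29, and it was 9.56-fold lower in the RNA labelled KO and stood at position 18 of 27579 from the bottom. By Feature Extraction's own ratio the mean log2 ratio of Bmp3 was -3.97. The Bmp3 probe lies at chr5:99120173-99120232.

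Both Gdf1 and Gdf9 were lower in the RNA labelled KO without reaching 2-fold. Gdf1, a nodal-related ligand, gave 1313 against 2254 and 1379 against 2120.1 units, with log2 ratios of -0.78 and -0.62. Gdf1 is transcribed on a shared message with the ceramide synthase gene Cers1, and the 2 reading frames were not told apart here. Gdf9, known as an oocyte factor, gave 175 against 235 and 159 against 270.1 units, with log2 ratios of -0.43 and -0.76. The remaining ligands above background in both RNAs were Bmp6, Gdf5, Gdf7, Gdf11 and the stress-induced Gdf15, and their mean log2 ratios lay between -0.27 and 0.06.

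Gdf6 and Bmp8a were well above background on both arrays in the RNA labelled KO and on neither in the RNA labelled WT. Their ratios were therefore set against a floor. Gdf6, a ligand of joint development, was at 106 and 90.2 units (KO) against 73.6 and 61.3 (WT), a floor-based ratio of 1.46-fold, with KO the higher. Bmp8a was at 97.2 and 80.5 units against 61.9 and 69.9, a floor-based ratio of 1.29-fold. The Bmp8a log2 ratios differed between the arrays, at 0.65 and 0.20. The floor was the lowest signal that passed as above background, or the probe's own where that was higher. For Gdf6 the probe's own signal was used, so the value equals its observed ratio. Both values were averaged over channel values of both dye orientations with no allowance for error, so they are not lower bounds. By Feature Extraction's own ratio both genes passed 2-fold on each array, with mean log2 ratios of 3.77 for Gdf6 and 2.51 for Bmp8a. Bmp2, Bmp5, Bmp7, Bmp8b, Bmp10, Bmp15, Gdf2, Gdf3, Gdf8 (myostatin, Mstn in RefSeq) and Gdf10 did not stand well above background on both arrays in KO or in WT.

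Of the 5 activin and inhibin subunits, Inhba and Inha had ratios of opposite sign that did not reach 2-fold. Inhba, the subunit of activin A, gave 26352 (KO) against 15980.1 (WT) units and 29743 against 17760.0 units, with log2 ratios of 0.72 and 0.74. Inha, the alpha subunit of inhibins, which oppose activins, gave 263 against 341 and 245 against 399 units, with log2 ratios of -0.38 and -0.70. A dimmer Inha probe, not well above background in KO on either array, gave a mean of -0.05. Inhbb was at a mean of 0.19, Inhbe at -0.03, and Inhbc was not well above background.

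**Figure D2:**
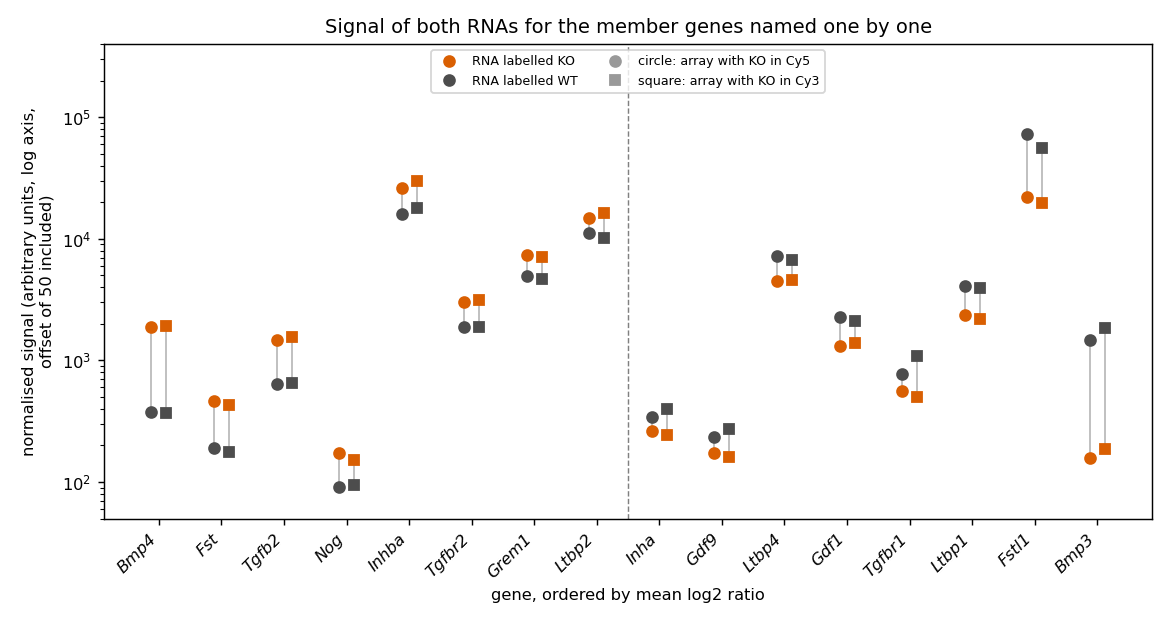
Normalised signal (arbitrary units, log axis, offset of 50 included) of both RNAs, KO in orange and WT in grey, for the 16 member genes named with full values, ordered by mean log2 ratio, with a pair of points for each array. The order of the RNAs was the same on both arrays for each gene, from 5.14-fold higher for Bmp4 to 9.56-fold lower for Bmp3; signals of different genes come from different probes and are not comparable.

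No receptor was called. Among the 7 type I receptors, the 5 above background were Tgfbr1, Bmpr1a, Acvr1b, Acvr1 and Bmpr1b. Tgfbr1, the type I receptor for TGF-beta, gave 564 (KO) against 767 (WT) units on the first array and 503 against 1087 on the second. The KO signal was the lower of the pair on both, but its log2 ratios of -0.44 and -1.11 differed by 0.668, the largest gap between arrays among the members, and passed 2-fold on the second array only. A dimmer Tgfbr1 probe, not above background, gave 0.07. Bmpr1a, a type I receptor for BMPs, gave log2 ratios of -0.20 and -0.71, and its second probe -0.34 on each array. Acvr1b, which binds activin with a type II partner, gave -0.27 and -0.61, and Acvr1 gave -0.17 and -0.34. Bmpr1b stood at 0.33 and 0.12. The other receptors of this class, Acvrl1 and Acvr1c, were not well above background on both arrays.

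Of the 4 type II receptors, Tgfbr2 had the highest ratio, below 2-fold. Tgfbr2, which binds TGF-beta first and recruits Tgfbr1, gave 2997 (KO) against 1888 (WT) units and 3165 against 1894 units. The log2 ratios were 0.67 and 0.74 and the fold 1.63. Its 2 further probes lie elsewhere along chromosome 9 and were near background. One of them, at 115958776-115958835, was well above background in both RNAs and gave -0.21 and 0.05, and the other gave a mean of -0.02. Bmpr2, the type II receptor for BMPs, had 3 probes above background that gave different signs. The brightest gave -0.24 and -0.32, and the others gave means of 0.14 and 0.12. Acvr2b gave -0.41 and -0.16, and Acvr2a 0.00 and -0.20. Tgfbr3, the co-receptor betaglycan that presents TGF-beta 2, was well above background on both arrays in the RNA labelled KO and on 1 array in the RNA labelled WT, with log2 ratios of 0.19 and 0.02.

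Among the member genes that encode antagonists of BMPs and activins, Fst was called higher and none was called lower. Fst, which encodes follistatin and binds activins, gave 468 (KO) against 190 (WT) units and 430.4 against 175 units. Its log2 ratio was 1.30 on each array, a 2.46-fold difference, at chr13:115575362-115576034. Median centring gave 1.83 and 0.75, again without a call. Nog, the BMP antagonist noggin, gave 172 against 90.1 and 152 against 93.9 units. The log2 ratios of 0.93 and 0.69 did not reach the threshold, and the WT signals were near background, where the offset weighs most. By Feature Extraction's own ratio, which has no such offset, Nog averaged 1.71 and passed 2-fold on each array. Grem1, the BMP antagonist gremlin 1, gave 7317 against 4986 and 7088 against 4704 units, with log2 ratios of 0.55 and 0.59. Chrd (chordin) was at a mean of 0.11.

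Fstl1 was the only one of the 4 follistatin-like genes that was called. It encodes a secreted glycoprotein with a follistatin domain. The gene gave 22264 (KO) against 72700.4 (WT) units on the first array and 19849 against 55802 on the second, at chr16:37754746-37754805. The RNA labelled KO was 3.03-fold lower, with log2 ratios of -1.71 and -1.49. This value rests on the dye correction more than those of the other called genes. Before normalisation the mean spot signal on the first array was 39806 (KO) against 39191 (WT), and on the second 12324 against 94366. With median centring in place of the intensity-dependent correction the ratios became -0.47 and -2.42, which averaged -1.44 and no longer met the call rule. No spot on either array was saturated. Fstl3, which binds activins as follistatin does, was at 0.25 and 0.18, Fstl4 at -0.17 and -0.01, and Fstl5 was not well above background.

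The latent TGF-beta binding proteins differed among themselves. Ltbp1 gave 2344 (KO) against 4053 (WT) units and 2183 against 3933 units, and its log2 ratios were -0.79 and -0.85. A second probe of Ltbp1 gave -0.64 and -0.56. Ltbp4 gave 4453 against 7152 and 4561 against 6712 units, with log2 ratios of -0.68 and -0.56. Ltbp2, which despite its name does not bind latent TGF-beta, was higher at 14784 against 11193 and 16412 against 10193 units, with log2 ratios of 0.40 and 0.69. Ltbp3 was at -0.10 and 0.03 by its brightest probe and at -0.35 and -0.31 by the other.

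Below 2-fold, a difference was counted where the mean log2 ratio was at least 0.5 in size, of 1 sign on both arrays, and the gene was well above background in both RNAs on both arrays. With the called genes included, 8 members were higher under this rule (Bmp4, Fst, Tgfb2, Nog, Inhba, Tgfbr2, Grem1 and Ltbp2), or 14.3%, where 5.89% of all genes were. Another 8 were lower (Bmp3, Fstl1, Ltbp1, Tgfbr1, Gdf1, Ltbp4, Gdf9 and Inha), again 14.3%, where 6.32% of all genes were. The members were above background more often, at 75.0% in at least 1 RNA on both arrays against 57.6% of all genes. The rule is narrower than these shares, since it can pass only genes that were so in both RNAs. The other 23 members above background in both RNAs lay between -0.46 and 0.33. Bmp1, a procollagen protease, and Bmp2k, an intracellular kinase, were matched by name but are not ligands, and gave means of 0.33 and -0.31.

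**Figure D3:**
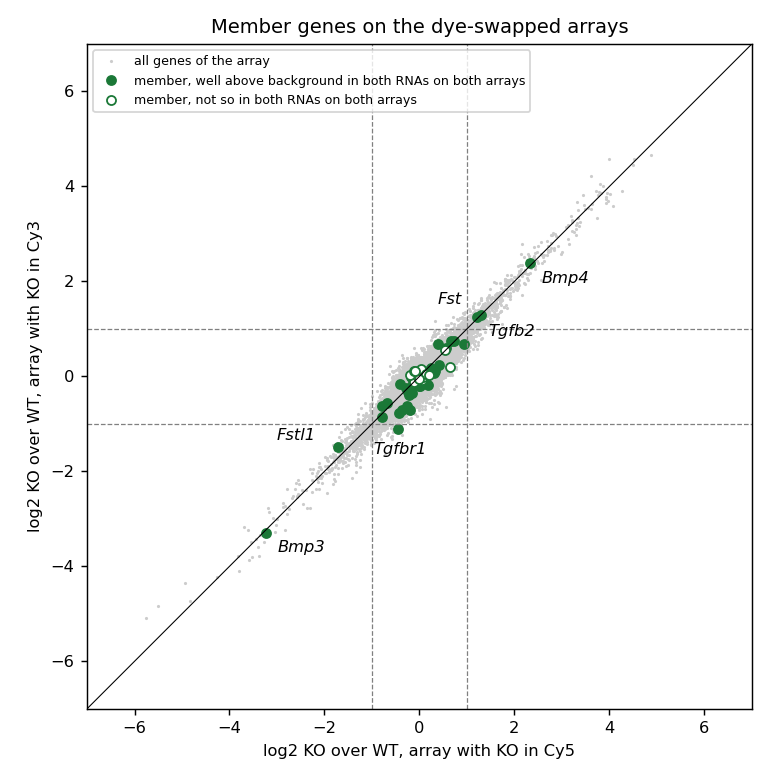
Log2 ratio of KO over WT on the array with KO in Cy5 (horizontal) against the array with KO in Cy3 (vertical), for all 27579 genes (grey) and 55 of the 56 members (green, open where not well above background in both RNAs on both arrays). The called members lie near the diagonal, and Tgfbr1 lies off it at -0.44 and -1.11.

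Several probes allowed a further comparison within genes. Of the 18 member genes with more than 1 probe, 8 had at least 2 probes well above background on both arrays in an RNA. In 3 of these 8 genes (Bmp1, Bmp2k and Bmpr2) probes differed in sign by more than the standard deviation between arrays on each side of 0. For Bmp2k the brightest probe gave -0.31 and the other probes gave 0.16, 0.22 and 0.35. The brightest Bmp1 probe gave 0.33 and the other -0.15. None of the 5 called genes had a second probe, so that each call rests on 1 probe sequence.

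**Figure D4:**
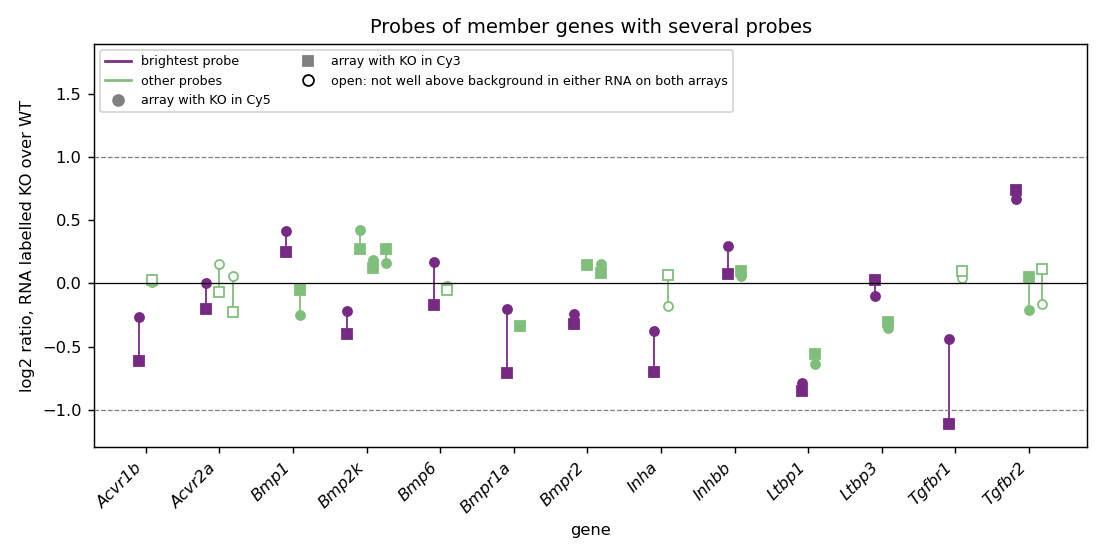
Log2 ratio of KO over WT (vertical) for each probe of the member genes with several probes of which at least 1 was well above background, with a line joining the arrays of a probe. The brightest probe is purple; the probes of Bmpr2 and Bmp2k lie on both sides of 0, both probes of Ltbp1 lie below 0, and the further probes of Tgfbr2 lie near 0.

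Other genes of the pathway were read from lists of SMADs, further ligands and modulators, nuclear co-factors and response genes. Outside the members 75 genes are reported, of which 5 (6.67%) were called higher and 5 (6.67%) lower, beside 1.7% and 1.49% of all genes. The lists were chosen with earlier results of these data known. All 22 TGF-beta response genes, and 19 of 29 further ligands and modulators, were above background in each RNA. Of all genes, 57.6% were so in at least 1 RNA on both arrays, and only such genes can be called. None of the 8 SMADs and none of the 8 nuclear co-factors was called, with mean log2 ratios from -0.60 to 1.06 and from -0.39 to 0.81. Smad7, an inhibitory SMAD that both pathways induce, held the highest of these values, at 1.32 and 0.80, and is named here after its values were seen. Among 29 further ligands and modulators, Crim1, a transmembrane protein that binds BMPs, was 2.47-fold higher in the RNA labelled KO. Tll1, a tolloid-like protease that cleaves chordin, was 2.46-fold higher. Chrdl1, a chordin-like BMP antagonist, was 4.36-fold lower, at 97.1 against 477 and 128 against 496 units.

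Response genes were called in both directions. Of 22 TGF-beta response genes, all above background in both RNAs, 1 was called higher and 3 lower, with a median log2 ratio of 0.01. Thbs1 (thrombospondin 1, which can activate latent TGF-beta) was 2.39-fold higher in the RNA labelled KO. The matrix genes Postn and Tgfbi were 3.23-fold and 3.02-fold lower, and Cnn1 was lower as given above. Of 16 BMP response genes, 2 were called higher and 1 lower, with a median of 0.05. Id1 was 2.19-fold and Id4 2.30-fold higher, both inhibitors of basic helix-loop-helix factors. The related Id2 gave -0.08 and -0.26 and Id3 -0.54 and -0.46 on the arrays, without a call, and are also named after their values were seen. Msx1, a homeobox factor, was 4.21-fold lower, at 568 against 2339 and 527 against 2267 units. Smad7 stands in both response lists, and the members Ltbp2 and Tgfb1 also stand among the TGF-beta response genes.

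**Figure D5:**
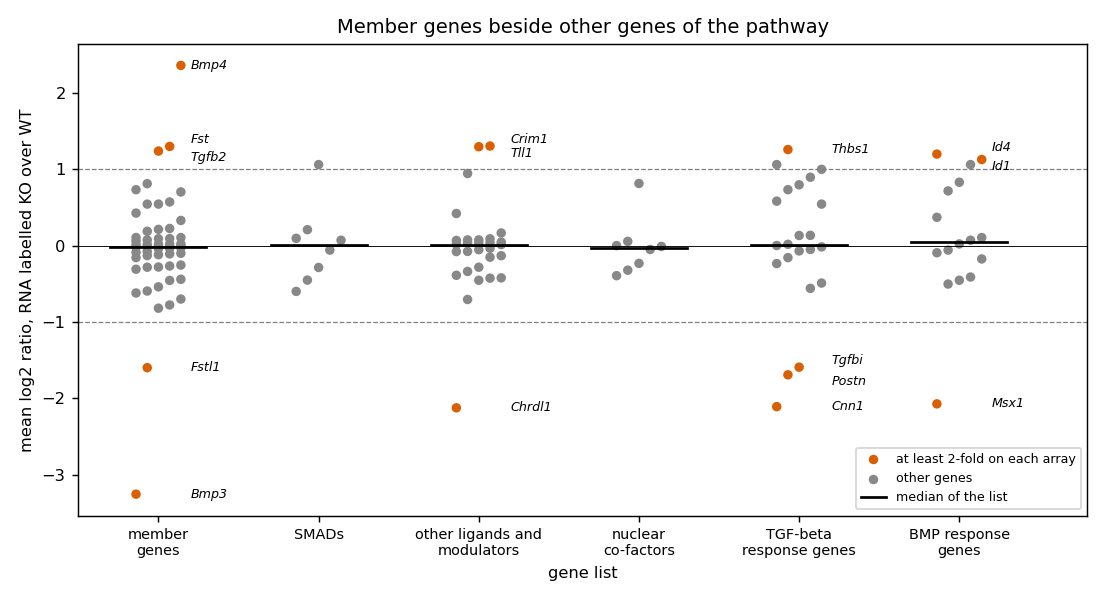
Mean log2 ratio of KO over WT (vertical) of 55 of the 56 member genes and of 5 lists of pathway genes, with a bar at the median of each list and called genes in orange. The medians lie between -0.03 and 0.05, and called genes lie on both sides of 0 among the members, the modulators and both response lists.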

How the data were processed

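RNA of Lats2 KO and WT fibroblasts was read on 2 two-colour Agilent arrays with exchanged dyes, both on the same slide. Per the file headers, the authors deposited spot signals and local backgrounds as intensity, and a log10 ratio of Cy5 over Cy3 made with Agilent Feature Extraction 10.5.1.1. They also deposited log2 ratios per probe, which ran as KO over WT on both arrays. Coordinates are those of the files (mm8).

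R 4.3.3 with limma 3.58.1 was used for background correction by normexp (offset 50) and for loess within each array, and the ratios were turned to KO over WT. Of 45018 spots, 1639 controls and 390 or 378 outlier spots per array were left out. Signals of single RNAs were set between arrays by Aquantile. A probe with several spots counted as above background where a share of 0.5 or more of its spots had the flag. The probe brightest on average stood for a gene. Of 82 member probes, 73 matched a RefSeq accession (GRCm38.p6), which named Gdf8 as Mstn, and no probe was a member by its RefSeq name only. Members called, or with a mean log2 ratio of at least 0.5 in size and above background in both RNAs, were given full values. Other pathway genes were named where called. A few genes of the lists are not reported here.

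The members, gene lists and motifs were chosen with earlier results of these data known. The background and dye steps and the 2-fold rule on each array were tested on simulated data. The background flag and the choice of the brightest probe were not part of that test. Only bright probes were changed there, under a dye trend linear in log intensity, so recovery of changes in dim probes was not tested. Tables and plots used pandas 2.3.3, matplotlib 3.10.9, numpy 2.4.6 and statsmodels 0.14.6 under Python 3.11.15. Alternatives were other ratios, backgrounds, offsets, filters, thresholds, single arrays, limma and the methods' t-test. The number of arrays limits the precision of each value.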

Additional observations from a re-analysis of the deposited data

How the results depend on the processing

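Bmp4 and Bmp3 were called in every setting except the Benjamini-Hochberg adjusted t-test, which called no gene of the array. The mean log2 ratio of none of the 16 members given with full values changed sign. By Feature Extraction's own ratio, and by the deposited log2 table, 6 members were called higher (Nog, Gdf6 and Bmp8a were added), where 3.41% of all genes were. With an offset of 10, 5 were called higher (Nog and Gdf6 were added), where 2.37% of all genes were. With median centring 1 was called higher and 1 lower, against 0.914% and 0.504% of all genes, since Fst, Tgfb2 and Fstl1 passed 2-fold on 1 array only. At 1.5-fold 6 were called higher and 4 lower, against 4.06% and 4.12% of all genes. The methods' t-test called 3 higher and 2 lower unadjusted (1.48% and 1.29% of all genes). After Benjamini-Hochberg adjustment over all probes it called 0 and 0, and 0.0% of all genes in each direction. With 2 values per probe, that outcome says nothing particular to the members. By limma with this adjustment 3 and 2 were called (1.87% and 1.76% of all genes). These tests compare the RNAs hybridised, not the genotypes. On single arrays 3 members were called higher on each, and from 2 to 3 lower, with Tgfbr1 added on the array with KO in Cy3. All genes called were 2.03% and 1.7% on the array with KO in Cy5, and 1.89% and 1.93% on the other. The median log2 ratio of the members lay between -0.0141 and -0.0113 on the single arrays. Nog lay between 0.69 and 1.71 over the settings, and averaging all probes of a gene brought Tgfbr2 to 0.20, Tgfbr1 to -0.35 and Inha to -0.30. Values near background are limited by signal, and the cause of these shifts was not tested. The RNAs were compared within each array, but no pairing of biological replicates was possible because 1 RNA stood for a genotype.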
